A study of Arabidopsis thaliana with 32 samples.

Results

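The 7 genes described here are 5 homeodomain-leucine zipper class II (HD-ZIP II) transcription factors of the shade response, *ATHB2* (AT4G16780), *HAT1* (AT4G17460), *HAT2* (AT5G47370), *HAT3* (AT3G60390), and *ATHB4* (AT2G44910), and the pair of atypical basic helix-loop-helix (bHLH) genes *PAR1* (AT2G42870) and *PAR2* (AT3G58850). They were taken by gene identifier from a table of 27655 genes. RNA came from whole Arabidopsis seedlings of the wild type Col-0 and of 3 mutants in the Col-0 background, *hmr-22*, *med14-2*, and *pif4-2* (a T-DNA insertion line), which had grown for 96 h under constant red (R) light at 50 µmol per square metre per second, in cool (20°C) or warm (27°C) chambers. There were 4 biological replicates for each of the 8 combinations of genotype and temperature. Seedlings were pooled whole for each library, so that fewer cells of a type and less RNA per cell cannot be told apart. PIF4 is a bHLH factor that promotes elongation growth in warmth, HMR (HEMERA) is a protein of plastids and nuclei needed for the warm response, and MED14 is a scaffold subunit of the Mediator complex.

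In low red to far-red light, the signature of neighboring plants, PHYTOCHROME INTERACTING FACTORS (PIFs) bind G-box (CACGTG) and PBE-box (CACATG) elements and raise the transcripts of a set of transcription factors within the shade response. HD-ZIP II proteins are mostly repressors, and *ATHB2* is the classic marker gene of shade. PAR1 and PAR2 lack a functional DNA-binding basic region and hold back shade growth by pairing with PIFs and other bHLH proteins. Warmth and shade both act through PIF4 and PIF7, and the comparisons below ask how these genes stood in warmth with and without PIF4, HMR, and MED14.

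The deposited values are fragments per kilobase of exon, normalized to the mapped total of a library (FPKM). Depth recovered from them was 11911240 to 16883322 fragments per library. The share of fragments in nuclear genes was 35.2 to 61.0% in *hmr-22* at 20°C and 64.4 to 74.7% at 27°C, against 68.0 to 82.8% and 91.9 to 93.0% in Col-0, and 1 of the 4 *med14-2* libraries at 27°C had 55.9%. For the limma fits the values were therefore rescaled with trimmed means of M values (TMM). The factors ran from 0.197 to 0.647 in *hmr-22* and from 0.871 to 1.83 in the other libraries. The exact permutation tests of the mutated genes used deposited FPKM. Leaving the rescaling out moved the median log2 change of all genes from 20°C to 27°C by 0.32 (*med14-2*), 0.43 (*pif4-2*), 0.47 (Col-0), and 0.57 (*hmr-22*), and the median difference of *hmr-22* from Col-0 by −1.39 at 20°C and −1.32 at 27°C. A gene was called when limma gave an adjusted p under 0.001 (Benjamini-Hochberg over the 19937 genes tested), the change was 2-fold or more, and the higher of the 2 group means exceeded 1 FPKM. All 7 genes passed the filter on low values.

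Transcripts of the mutated genes were looked at first. *PIF4* was lower in *pif4-2* than in Col-0 at 27°C, with 5.63 against 24.4 FPKM (p = 0.0286 in a two-sided exact permutation test, which is as low as 4 against 4 can go). At 20°C the levels were 5.47 and 7.49 FPKM, with ranges of 4.02 to 6.46 and 5.49 to 9.36 that overlap (exact permutation test, p = 0.114), so that the transcript does not check this label there. *HMR* was at 0.224 and 0.956 FPKM in *hmr-22* at 20°C and 27°C, against 29.7 and 47.9 in Col-0. The study describes *hmr-22* as a weak allele that changes a residue in the activation domain of HMR, a description that does not by itself give so low a transcript level, and why it was so low was not tested. These 8 are therefore called the libraries labelled *hmr-22*, and each direction given for *hmr-22* is a direction in them. *MED14* was not lower in *med14-2*. At 20°C it was higher, with 9.99 against 5.73 FPKM and ranges of 9.73 to 10.4 and 4.97 to 6.31 (exact permutation test, p = 0.0286). At 27°C it had 9.86 against 8.65 FPKM (exact permutation test, p = 0.4). After rescaling, the ranges at 27°C were 5.59 to 6.56 in *med14-2* and 4.81 to 5.68 in Col-0, which overlap. The study describes its *med14* insertion line as strongly reduced in *MED14* expression, which these values do not show, and why was not tested. The *MED14* transcript level thus does not check this label, and these are called below the libraries labelled *med14-2*. The libraries labelled *hmr-22* also differed from Col-0 in marker genes. The summed FPKM of 4 seed storage and oil body genes was 16.1 to 29.7 in *hmr-22* at 27°C, where Col-0 had 0.513 to 2.44 over both temperatures. At 20°C it was 0.821 to 1.13 in *hmr-22*, within the range of Col-0, and it was also raised in part of other groups, with 0.534 to 38.6 in *med14-2* at 20°C and 2.78 to 7.82 in *pif4-2* at 27°C. After rescaling the sum in *hmr-22* at 20°C was 2.33 to 4.44, above the 0.421 to 1.46 of Col-0 over both temperatures. The part of these markers in the results was not tested. The summed FPKM of 4 root hair and root epidermis genes was 0 to 3.69 in *hmr-22* over both temperatures, where Col-0 had 13.0 to 123. After rescaling these were 0 to 12.9 and 7.76 to 113, which overlap, though not at the same temperature.

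In Col-0 at 20°C, *HAT2* and *HAT1* were the most abundant of the 7 transcripts per length and *ATHB4* the least. *HAT2* had 7.90 ± 1.93 FPKM (SD, n = 4) and *HAT1* 7.80 ± 0.70. *HAT3* followed with 4.58 ± 0.16 and *PAR2* with 3.68 ± 0.68. *PAR1*, *ATHB2*, and *ATHB4* were low, at 1.37 ± 0.43, 1.16 ± 0.28, and 0.517 ± 0.107 FPKM. The libraries held only 8 to 11 fragments of *ATHB4* and 14 to 29 of *ATHB2* in this group, so that counting alone leaves these 2 levels imprecise.

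**Figure D1:**
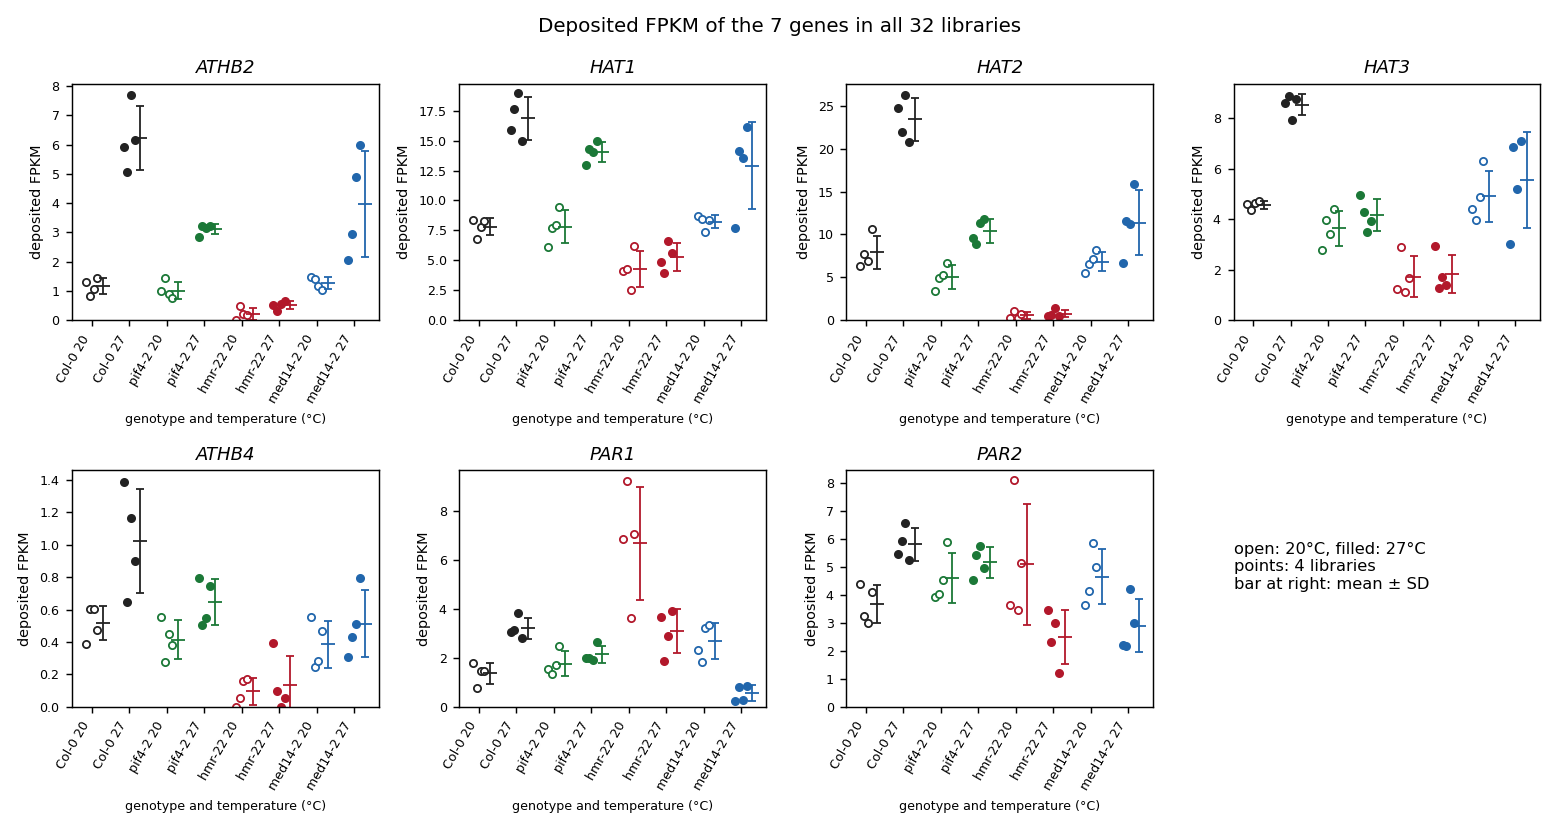
Deposited FPKM (y axes) of the 7 genes in each library, by genotype and temperature (x axes). Points are the 4 libraries of a group, open at 20°C and filled at 27°C, and the bar to the right is the mean ± SD, with axes starting at 0; *HAT2* in Col-0 is at 6.34 to 10.7 FPKM at 20°C and 20.8 to 26.3 at 27°C, while *PAR1* in the libraries labelled *med14-2* falls to 0.238 to 0.862.

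*ATHB2* was the only 1 of the 7 genes that was called in Col-0 in warmth, and it rose. The 4 Col-0 libraries had 1.31, 0.807, 1.07, and 1.43 FPKM at 20°C and 5.90, 5.08, 7.70, and 6.17 FPKM at 27°C. Every library at 27°C was thus above every library at 20°C. On the log2 scale of rescaled FPKM + 0.25, which understates changes of low genes, the rise was 1.69 (SE 0.33, limma adjusted p = 0.000249). The share of all tested genes called in either direction in this comparison was 5.24%. The call did not hold with a pseudocount of 0.1 FPKM (adjusted p = 0.0031), nor without Col-0 replicate 2 at 20°C (0.00223) or Col-0 replicate 3 (0.00182) or 4 (0.00106) at 27°C, and the direction stayed the same in all of these.

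The other 4 HD-ZIP II genes had positive log2 changes in Col-0 that were not called. *HAT2*, a gene whose overexpression alters auxin responses, was at 6.34, 7.67, 6.90, and 10.7 FPKM at 20°C and 24.8, 21.9, 26.3, and 20.8 FPKM at 27°C. Its 2 groups did not overlap. Its log2 change was 1.05 (SE 0.24, limma adjusted p = 0.00137), just short of the p threshold, and it was called under other settings, among them median-ratio scaling (log2 1.11) and a fit without the *hmr-22* libraries (log2 1.05). *HAT1*, which also acts in brassinosteroid signaling, was at 6.81 to 8.35 FPKM at 20°C and 14.96 to 18.9 at 27°C, a log2 change of 0.58 (SE 0.13, limma adjusted p = 0.00105) that is below 2-fold after rescaling. *HAT3* and *ATHB4*, which act in leaf polarity and shade together, had log2 changes of 0.37 (SE 0.18) and 0.30 (SE 0.34), with adjusted p-values of 0.142 and 0.582.

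*PAR1* and *PAR2* were not called in Col-0 either. *PAR1* was at 1.79, 0.767, 1.47, and 1.48 FPKM at 20°C and at 3.06, 3.13, 3.82, and 2.82 at 27°C. The groups were separate, with a log2 change of 0.64 (SE 0.22, limma adjusted p = 0.032). *PAR2* was at 2.98 to 4.40 FPKM at 20°C and 5.25 to 6.55 at 27°C, and its log2 change after rescaling was 0.14 (SE 0.22, adjusted p = 0.702). In Col-0, 5 of the 7 genes had rescaled ranges at 27°C wholly above those at 20°C. Of all tested genes, 43.2% had ranges that did not overlap in either direction, and 20.5% were wholly above. In deposited FPKM all 7 were separate, but the share of all tested genes with separate deposited ranges was not computed. All 7 log2 changes were positive on both scales, with a median of 0.58 after rescaling against 0.02 over all tested genes. Without rescaling the median over all tested genes was itself 0.49.

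In *pif4-2*, 0 of the 7 genes were called in warmth by limma, where 5.7% of all tested genes were, and 3 had an unadjusted p under 0.05. The share of all tested genes at that unadjusted p was not computed, here or for the later counts at it. Those counts therefore have no background beside them. voom, limma's fit to recovered fragments, also called 0. *ATHB2* was at 0.986, 1.43, 0.882, and 0.746 FPKM at 20°C and 2.85, 3.23, 3.15, and 3.23 FPKM at 27°C. These groups did not overlap, and its log2 change was 0.99 (SE 0.33, limma adjusted p = 0.0221), with an unadjusted p of 0.00518. It was called in 3 fits, with log2 changes of 1.05 when only the groups compared or all but the *hmr-22* libraries entered, and 1.07 with a weight per library, and also without rescaling (1.44). *HAT1* (log2 0.37, adjusted p = 0.029) and *HAT2* (0.57, 0.0707) had smaller values, while *HAT3*, *PAR1*, and *PAR2* had log2 changes of −0.26, −0.15, and −0.28, with adjusted p-values of 0.3, 0.652, and 0.353.

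Side by side with Col-0, *pif4-2* had 0 of 7 genes called by limma at 20°C (0.782% of all tested genes were) and 0 of 7 at 27°C (4.48% were). An unadjusted p under 0.05 was reached by 2 of the 7 at 20°C and by 3 at 27°C, counts to which the shares above do not apply. The voom fit called 0 at either temperature. At 27°C, *HAT2* was at 9.57, 8.93, 11.4, and 11.9 FPKM in *pif4-2* and at 20.8 to 26.3 in Col-0. The log2 difference was −0.93 (SE 0.24, limma adjusted p = 0.00403), and the ranges were separate. Those of *HAT3* (log2 −0.77, SE 0.18, adjusted p = 0.00139) and *ATHB2* (log2 −0.70, SE 0.33, adjusted p = 0.106) were also wholly below Col-0. These 3 of 7 compare with 45.4% of all tested genes whose rescaled ranges did not overlap in either direction, and with 22.2% wholly below. The difference in warm response between *pif4-2* and Col-0 passed an adjusted p of 0.05 for 0 of the 7 genes, where 2.49% of all tested genes passed. By limma, 2 of the 7 had an unadjusted p under 0.05, and by voom 0 passed. The estimates were negative for all 7, from −0.20 for *ATHB4* to −0.80 for *PAR1* (SE 0.31, adjusted p = 0.232), and the interval of the difference for *ATHB2* ran from −1.65 to 0.26.

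**Figure D2:**
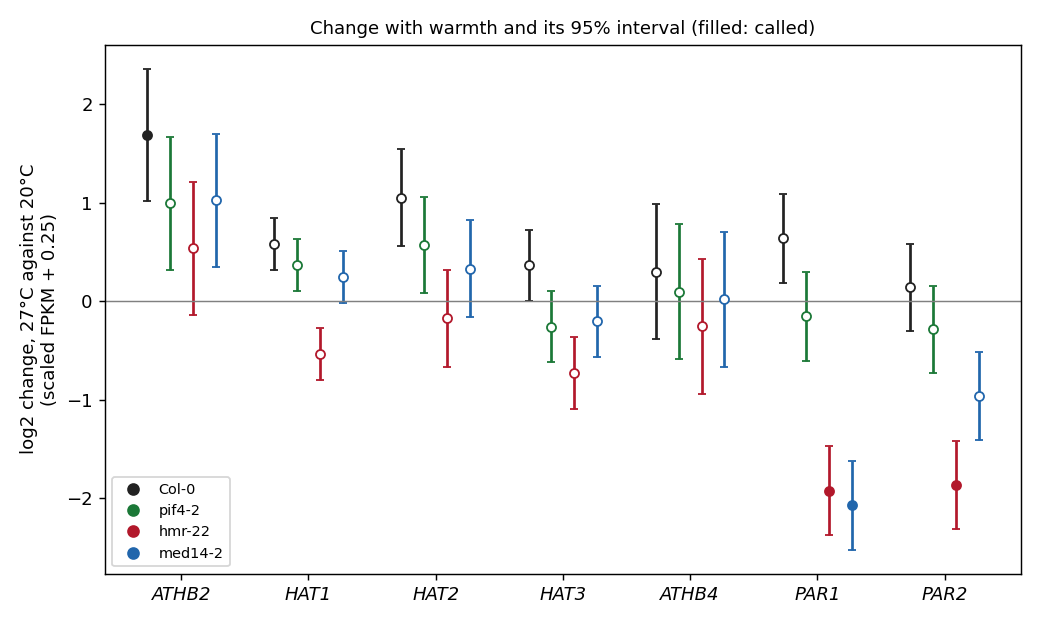
Log2 change from 20°C to 27°C (y axis, rescaled FPKM + 0.25) of each gene (x axis) in the 4 genotypes, with 95% confidence intervals from limma. Filled points passed the thresholds: *ATHB2* in Col-0 (1.69), *PAR1* in the libraries labelled *hmr-22* (−1.92) and *med14-2* (−2.07), and *PAR2* in those labelled *hmr-22* (−1.87).

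In the libraries labelled *med14-2*, *PAR1* fell in warmth. It was at 2.31, 1.84, 3.21, and 3.36 FPKM at 20°C and at 0.238, 0.815, 0.297, and 0.862 FPKM at 27°C. The libraries at 27°C held 4 to 14 fragments of *PAR1*, and all 4 were below every library at 20°C. The log2 change was −2.07 (SE 0.22, limma adjusted p = 2.41e-08), a fold of 0.238, and *PAR1* was the only 1 of the 7 genes called (4.45% of all tested genes were). It was called in all alternatives tried, with log2 changes from −2.69 to −1.24, and leaving out any library gave −2.21 to −1.94. Without the *med14-2* library with 55.9% of its fragments in nuclear genes, it was −1.98.

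*PAR2* was at 3.64, 4.12, 5.86, and 4.99 FPKM at 20°C and 2.20, 2.17, 4.19, and 2.99 FPKM at 27°C in the libraries labelled *med14-2*. These values overlap, and after rescaling they did not. Its log2 change was −0.96 (SE 0.22, limma adjusted p = 0.00143), which missed both thresholds. *ATHB2* was at 1.03 to 1.47 FPKM at 20°C and at 2.04, 2.94, 4.88, and 6.0 FPKM at 27°C, a log2 change of 1.03 (SE 0.33, adjusted p = 0.0231) that was called without rescaling and without the *hmr-22* libraries (1.06). *HAT1*, *HAT2*, *HAT3*, and *ATHB4* had log2 changes of 0.25, 0.33, −0.20, and 0.02, none with an adjusted p under 0.177.

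Set against Col-0 at 20°C, the libraries labelled *med14-2* had 0 of 7 genes called by limma or voom (1.96% of all tested genes by limma), and 1 had an unadjusted p under 0.05. That gene was *PAR1*, higher with a log2 difference of 0.79 (SE 0.22, limma adjusted p = 0.014) and ranges of 1.84 to 3.36 against 0.767 to 1.79 FPKM. At 27°C the order was turned, and *PAR1* was lower than in Col-0, with a log2 difference of −1.92 (SE 0.22, adjusted p = 1.52e-07). It was again the only 1 of 7 called (3.23% of all tested genes). *HAT2* (log2 −0.96, SE 0.24, adjusted p = 0.00546), *PAR2* (−0.84, SE 0.22, 0.00718), and *HAT3* (−0.55, SE 0.18, 0.0364) also had rescaled ranges wholly below Col-0. With *PAR1* this makes 4 of 7, against 27.9% of all tested genes with separate ranges in either direction and 13.3% wholly below.

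The warm response itself differed between *med14-2* and Col-0 for 2 of the 7 genes, *PAR1* and *PAR2*, where 6.41% of all tested genes passed. The difference was −2.71 for *PAR1* (SE 0.31, limma adjusted p = 5.98e-07) and −1.10 for *PAR2* (SE 0.31, adjusted p = 0.0232). The value for *PAR1* came to −2.62 without the library of low nuclear share. That for *PAR2* did not pass when Col-0 replicate 2 at 20°C (adjusted p = 0.0589), Col-0 replicate 3 at 27°C (0.0606), *med14-2* replicate 3 (0.0703) or 4 (0.0508) at 20°C, or *med14-2* replicate 2 at 27°C (0.0767) was left out. *HAT2* (−0.72, adjusted p = 0.282) and *HAT3* (−0.57, adjusted p = 0.235) did not pass, though both did without the *hmr-22* libraries (adjusted p = 0.0237 and 0.0472). The mutants were all set against the same Col-0 libraries, so that a negative estimate in one mutant is not independent of that in another.

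Markers of green tissue were, after rescaling, lowest and highest in the same groups as *PAR1*. The summed rescaled FPKM of *RBCS1A* and 3 *LHCB* genes was 8349 to 9756 in the libraries labelled *med14-2* at 27°C, the lowest of the 8 groups, against 17950 to 19653 at 20°C. In the libraries labelled *hmr-22* at 20°C, where *PAR1* was highest, the sum was 42120 to 51832. In Col-0 it was 15045 to 18539 at 20°C and 10632 to 12409 at 27°C, where *PAR1* was not lower. Deposited FPKM gave these markers another order. Their lowest sum was then 9613 to 11749, for *hmr-22* at 27°C. The highest was 24105 to 26500, for *pif4-2* at 27°C, and *hmr-22* at 20°C reached only 10229 to 17596. Mean deposited *PAR1* was still highest in *hmr-22* at 20°C (6.67 FPKM) and lowest in *med14-2* at 27°C (0.553 FPKM). The match was thus not seen without rescaling. The part of green tissue in the *PAR1* values was not tested.

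The arrangement of motifs upstream of *PAR1* and *PAR2* is shown because these 2 genes were the ones whose warm response differed from Col-0 in both *hmr-22* and *med14-2*. Both are genes of 1 exon on the minus strand, *PAR1* at chr2:17836416-17837618 and *PAR2* at chr3:21759350-21760390 (TAIR10). In the windows from 250 bases before to 50 after the gene start, a G-box was found in 0 of the 7 genes (7.67% of all nuclear genes) and a PBE-box, searched as CACATG on both strands, in *HAT2* and *PAR2* (12.9% of all). In the 2000 bases before the start, a window chosen after the shorter ones had been seen, 5 of the 7 genes held a G-box (23.8% of all genes) and 5 held a PBE-box (61.0% of all). A match of letters is no evidence of binding. The sequences below are from the RefSeq TAIR10.1 genome, whose gene starts and ends are those of the deposited table for all 7 genes, with each motif in capitals and read 5′ to 3′ along the gene's own strand. The G-boxes of *PAR1* (937 bases before the start, chr2:17838538-17838567, minus) and *PAR2* (1030 bases, chr3:21761403-21761432, minus) were:
PAR1 G-box: aaaaagggttgaCACGTGgccaccatgccc
PAR2 G-box: cataaaagatgtCACGTGgctcccatgcga
The next PBE-box toward the gene began 27 bases further on in *PAR1* (chr2:17838511-17838540) and 28 bases further on in *PAR2* (chr3:21761375-21761404), within a run of 14 letters that both genes share:
PAR1 PBE-box: cccgatagatatCATGTGgatcttagtagg
PAR2 PBE-box: gagatggaaaatCATGTGgatcttcttctg
Both genes also held PBE-boxes at about the same distance closer to the gene, 742 bases before the start in *PAR1* (chr2:17838343-17838372) and 739 in *PAR2* (chr3:21761112-21761141), each preceded by the same 8 letters. The capitals mark every PBE-box that lies whole in these stretches, so a further box at 731 is seen in *PAR1*, and further boxes at 731 and 729, which share letters, are seen in *PAR2*:
PAR1 near PBE-box: gatggagatattCATGTGacccgCACATGt
PAR2 near PBE-box: gatggagaaactCATGTGagCACATGTGct

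In the libraries labelled *hmr-22*, *PAR1* and *PAR2* fell from 20°C to 27°C, and they did so from high levels. *PAR1* was at 6.86, 9.20, 3.61, and 7.04 FPKM at 20°C and at 3.66, 1.89, 2.89, and 3.91 FPKM at 27°C. After rescaling, the values were 18.3 to 23.4 and 4.25 to 7.0, a log2 change of −1.92 (SE 0.22, limma adjusted p = 1.03e-08). *PAR2* was at 3.62, 8.09, 3.47, and 5.14 FPKM at 20°C and at 3.44, 2.32, 2.98, and 1.20 FPKM at 27°C. Its log2 change was −1.87 (SE 0.22, adjusted p = 1.34e-08). These 2 genes were the only ones of the 7 called, where 22.1% of all tested genes were. Without rescaling the changes were −1.03 (adjusted p = 0.00126) and −0.97 (adjusted p = 0.000881) and neither was called, and the *PAR1* call was also lost with a weight per library (adjusted p = 0.00132).

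The HD-ZIP II genes showed no call in warmth in the libraries labelled *hmr-22*. *HAT1* and *HAT3* had log2 changes of −0.53 (SE 0.13, limma adjusted p = 0.000674) and −0.73 (SE 0.18, adjusted p = 0.00076), below the fold threshold, and without rescaling both were positive, at 0.32 and 0.09. *ATHB2* was at 0.516, 0.310, 0.567, and 0.662 FPKM at 27°C and at 0, 0.495, 0.221, and 0.180 FPKM at 20°C, where a count of 3 fragments in the library at 0 would have given 0.144 FPKM. Its log2 change was 0.54 (SE 0.33, adjusted p = 0.159).

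Against Col-0 at 20°C, 4 of the 7 genes were called in the libraries labelled *hmr-22*, where 49.6% of all tested genes were. *PAR1* was higher by 3.95 (SE 0.22, limma adjusted p = 2.14e-16) and *PAR2* by 2.27 (SE 0.22, adjusted p = 6.04e-11) on the log2 scale. Without rescaling *PAR1* was still called (2.07), while *PAR2* was not, with 0.37 (adjusted p = 0.159) and deposited FPKM of 3.47 to 8.09 that overlap the 2.98 to 4.40 of Col-0. *HAT1* was higher by 1.01 (SE 0.13, adjusted p = 2.64e-08), with 4.07, 4.26, 2.55, and 6.19 FPKM before rescaling, all below the 6.81 to 8.35 FPKM of Col-0, so that its direction turns to −0.89 without rescaling. *HAT2* was lower, a log2 difference of −2.0 (SE 0.24, adjusted p = 7.25e-09). Its 4 *hmr-22* libraries had 0.225, 1.08, 0.207, and 0.673 FPKM, and its difference was −3.48 without rescaling. The *HAT1* call was at the edge of the fold threshold and was lost, among other settings, without *hmr-22* replicate 1 (log2 0.99) or 4 (0.88) or without Col-0 replicate 2 (1.00).

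At 27°C, 3 of the 7 genes were called in the libraries labelled *hmr-22* against Col-0 (47.7% of all tested genes). *HAT2* was at 0.532, 0.581, 1.43, and 0.517 FPKM, a log2 difference of −3.23 (SE 0.24, limma adjusted p = 2.08e-13), and *ATHB2* differed by −1.77 (SE 0.33, adjusted p = 1.71e-05). Both were also lower without rescaling, by −4.62 and −3.09. *PAR1* was higher by 1.38 (SE 0.22, adjusted p = 1.58e-06), but at −0.087 without rescaling its direction turned. The same held for *PAR2*, at 0.26 (adjusted p = 0.274) after and −1.22 without rescaling. *HAT1*, *HAT3*, and *ATHB4* had log2 differences of −0.11, −0.66, and −0.94 and were not called.

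**Figure D3:**
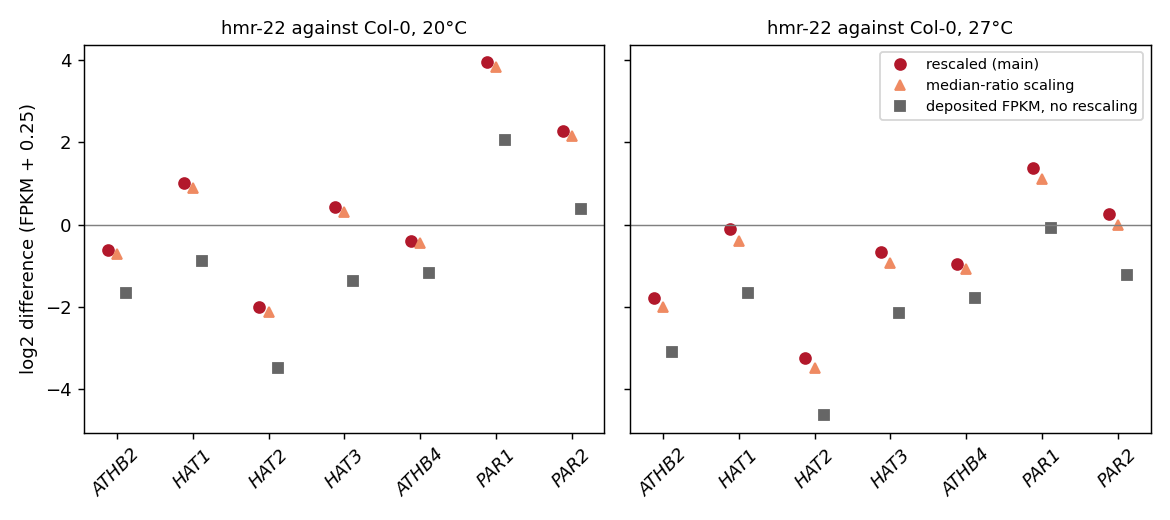
Log2 difference of the libraries labelled *hmr-22* from Col-0 (y axis) for each gene (x axis) at 20°C (left) and 27°C (right), with TMM rescaling (circles), median-ratio scaling (triangles), and the deposited FPKM as they are (squares). *HAT2* lies below 0 in all 3 at both temperatures (−2.0 and −3.48 at 20°C with and without TMM rescaling) and *PAR1* at 20°C above 0 in all 3 (3.95 and 2.07), whereas *HAT1* at 20°C changes sign.

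The warm response of the libraries labelled *hmr-22* differed from that of Col-0 for 6 of the 7 genes, all but *ATHB4*, and all toward lower values. Of all tested genes, 45.5% passed in either direction and 16.5% toward lower values. The differences were −2.57 for *PAR1* (SE 0.31, limma adjusted p = 1.11e-07), −2.01 for *PAR2* (SE 0.31, 4.30e-06), −1.22 for *HAT2* (SE 0.34, 0.00402), −1.15 for *ATHB2* (SE 0.47, 0.0445), −1.11 for *HAT1* (SE 0.18, 1.15e-05), and −1.09 for *HAT3* (SE 0.25, 0.000726). Over the alternatives the count ran from 4 to 6, and voom gave 5. *HAT3* did not pass without rescaling (−0.77, adjusted p = 0.0762). *ATHB2* was close to the threshold, and it did not pass without any 1 of 12 libraries, with a pseudocount of 0.1 FPKM (adjusted p = 0.206), without the filter on low values (0.0554), with a weight per library (0.116), with voom (0.186), or when only the compared groups were fitted (0.0867).

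Ratios of 2 genes within a library are not moved by any scaling of libraries, and are given as a description. *HAT2* and *HAT1* had nearly equal FPKM in Col-0 at 20°C, with a ratio of 1.02 ± 0.24 (SD, n = 4), and *HAT2* exceeded *HAT1* in all 4 Col-0 libraries at 27°C, with 1.25 to 1.56. In the libraries labelled *hmr-22* the ratio was 0.0551 to 0.254 at 20°C and 0.0923 to 0.216 at 27°C, below every library of the other genotypes. In *pif4-2* it was 0.552 to 0.808 over both temperatures. *PAR1* was below *PAR2* in all libraries of Col-0 (0.236 to 0.583), *pif4-2* (0.330 to 0.537), and *med14-2* (0.0709 to 0.673). It exceeded *PAR2* in all 4 *hmr-22* libraries at 20°C, with ratios of 1.04 to 1.89, and spanned 0.816 to 3.26 at 27°C. In the libraries labelled *med14-2* the ratio went from 0.447 to 0.673 at 20°C to 0.0709 to 0.375 at 27°C, without overlap, so *PAR1* was lower there also in proportion to *PAR2*.

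**Figure D4:**
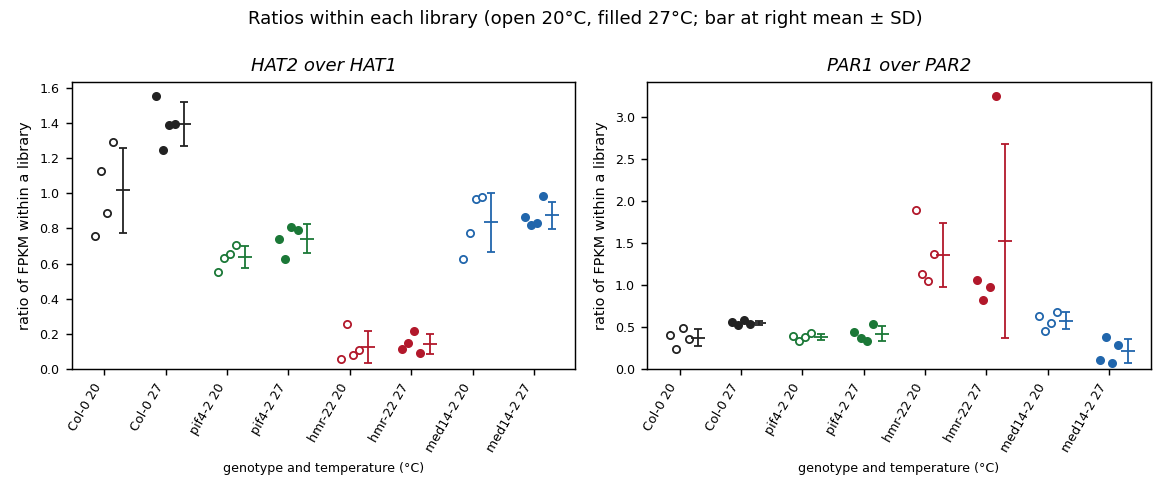
Ratio of FPKM within each library (y axes) for *HAT2* over *HAT1* (left) and *PAR1* over *PAR2* (right), by genotype and temperature (x axes), with the 4 libraries of a group as points, open at 20°C and filled at 27°C, and mean ± SD as the bar at the right. The *hmr-22* libraries lie lowest for *HAT2* over *HAT1* (0.0551 to 0.254) and all but 2 of the 8 lie above 1 for *PAR1* over *PAR2*.

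The HD-ZIP II genes each span 4 exons and none overlaps another annotated gene. *ATHB2* lies at chr4:9449114-9450905 and *HAT1* at chr4:9739518-9741234 on the plus strand, *HAT2* at chr5:19216271-19218007, *HAT3* at chr3:22320580-22322661, and *ATHB4* at chr2:18517656-18519731 on the minus strand. In the 2000 bases before the start, *HAT1*, *HAT2*, and *ATHB4* held G-boxes, and *ATHB2* and *HAT3* held none. The pattern CAATNATTG, labelled HD-ZIP II site below and searched with any middle base, was found in *ATHB2*, *HAT1*, and *HAT2* (6.35% of all genes). The middle base was A in *ATHB2*, G in *HAT1*, and T in *HAT2*. The A and T forms are the same pattern read on opposite strands. The label names the pattern searched and assigns no site to a class of HD-ZIP proteins. Which HD-ZIP proteins bind each form was not tested. These 3 are shown since HD-ZIP II proteins are known to act on their own and each other's genes, together with the G-boxes of *HAT1* and *HAT2*. They lie at chr4:9448627-9448655, chr4:9738770-9738798, and chr5:19219330-19219358 (minus), and at chr4:9738204-9738233 and chr5:19219449-19219478 (minus):
ATHB2 HD-ZIP II site: gatctaattcCAATAATTGtcaaagagga
HAT1 HD-ZIP II site: gttcttgcacCAATGATTGgaaaaatttg
HAT2 HD-ZIP II site: tttttgctctCAATTATTGtcgctcattg
HAT1 G-box: gtcccttgttgtCACGTGacatgacccacc
HAT2 G-box: agtcagagtgaaCACGTGggacagccagat
The HD-ZIP II site of *ATHB2* began 477 bases before its start, that of *HAT1* 738, and that of *HAT2* 1341. *ATHB2*, the gene with the largest log2 change of the 7 in Col-0, held neither a G-box nor a PBE-box in this window.

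Across all 32 libraries, *PAR1* and *PAR2* had a Pearson r of 0.87 in rescaled log2 values, and 0.77 over the 24 libraries without *hmr-22*. *ATHB2* and *HAT2* had 0.72 and 0.75. *ATHB2* and *HAT1* had −0.05 over 32 libraries and 0.80 over 24, so that this value rests on whether *hmr-22* is included. These are descriptions without a test, since the libraries fall into 8 groups and share their scaling. Among 7710 genes with a symbol, a mean of at least 1 FPKM, and a test, those most like *PAR1* over 32 libraries encoded light-harvesting proteins, *LHCA1*, *CAB1*, and *LHB1B1* (r = 0.95 each), and without *hmr-22* *GATA4* (0.90), *LHB1B1* (0.89), and *RAV2* (0.87). Those most like *PAR2* were *HVA22D* (0.92), *LHCB6*, and *ADS1* (0.91 each). *HAT2* was most like *MES3* (0.95), *IQD11*, and *MVP1* (0.94 each). *HAT1* was most like *UBC4* (0.83), *PRE1*, and *UBC6* (0.82 each), *ATHB2* most like *TRM18* (0.88), *CRK2* (0.82), and *RANBP1* (0.81), *HAT3* most like *AGP7* (0.80), *BZIP61* (0.78), and *PIN3* (0.76), and *ATHB4*, the lowest of the 7, most like *TPPH*, *TRFL10*, and *WRKY60* (0.66 each).

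Other genes of the pathway were counted by the same thresholds. In warmth, 5.24% of all tested genes were called in Col-0, 5.7% in *pif4-2*, 4.45% in *med14-2*, and 22.1% in *hmr-22*. Of 9 bHLH genes of shade and PIF signaling, 2 rose in Col-0 in warmth, *PIF5* (log2 1.60, SE 0.18, limma adjusted p = 7.52e-08) and *PIF4* (1.19, SE 0.20, 3.90e-05), and 0 fell, with a median log2 change of 0.99. Of 7 shade-induced auxin and wall genes, 1 rose and 0 fell, *IAA19*, an auxin signaling repressor (1.69, SE 0.25, 5.53e-06), close in size to *ATHB2*. The auxin synthesis gene *YUC8* fell in *pif4-2* in warmth (−1.07, SE 0.23, 0.000694). In the libraries labelled *med14-2*, 1 of the 9 bHLH genes fell, *KDR* (−1.01, SE 0.21, 0.00066), an atypical HLH gene like *PAR1*, and 1 of the 7 auxin and wall genes, the xyloglucan-modifying *XTH15* (−1.20, SE 0.23, 0.00026). In the libraries labelled *hmr-22*, *KDR* (−2.51, SE 0.21, 2.35e-11) and *PRE1* (−1.74, SE 0.26, 9.40e-07), another atypical HLH gene, fell with *PAR1* and *PAR2* in warmth, and *PIF1* (1.04, SE 0.23, 0.00025) rose. Of the 7 auxin and wall genes, 2 also fell there, *IAA19* (−2.68) and *XTH15* (−1.29), so the falls were not limited to HLH genes. Without rescaling the calls of *YUC8* in *pif4-2* (−0.71), of *KDR* and *XTH15* in the libraries labelled *med14-2* (−0.69 and −0.88), and of *PRE1* and *XTH15* in those labelled *hmr-22* (−0.86 and −0.41) were lost.

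At 20°C, the libraries labelled *hmr-22* had *HFR1* (log2 3.45, SE 0.26, limma adjusted p = 2.86e-13), *PRE1* (2.84, SE 0.26, 1.93e-11), and *KDR* (1.68, SE 0.21, 2.01e-08) higher than Col-0 and *PIF7* lower (−1.96, SE 0.36, 1.24e-05), 4 of 9 bHLH genes. This is near the share of all tested genes called in this comparison, 49.6%. Without rescaling *HFR1* and *PIF7* were still called, *PRE1* was not (1.02), and the direction of *KDR* turned (−0.23). *HFR1*, like *PAR1*, encodes an HLH protein that pairs with PIFs. *SAUR15* and *SAUR68*, auxin-induced genes that PAR1 is known to repress, were called in 0 of the 4 warm comparisons by limma, and at an unadjusted p under 0.05 both differed in Col-0 and in *hmr-22* and 1 in *pif4-2*. In Col-0 their log2 changes were 1.38 (SE 0.42, adjusted p = 0.0152) and 1.14 (SE 0.48, 0.0806), and in the libraries labelled *med14-2*, where *PAR1* fell, they were 0.30 (SE 0.42, 0.677) and −0.17 (SE 0.48, 0.85). Both were lower in the libraries labelled *hmr-22* than in Col-0 at 27°C (log2 −3.32 and −2.50), where 47.7% of all tested genes were called.

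HD-ZIP genes outside the shade set were counted in the same way, beside the same shares of all tested genes in warmth. Of 5 other HD-ZIP II genes, 4 could be tested, and limma called 0 in Col-0, *pif4-2*, or *med14-2* in warmth (0 also at an unadjusted p under 0.05), with a median log2 change of −0.07 in Col-0 against 0.58 for the 7 genes. *HAT22* rose in the libraries labelled *hmr-22* (1.17, SE 0.25, limma adjusted p = 0.000178), 1 of the 4 tested. There 0 of the 5 shade HD-ZIP II genes were called higher, and 13.8% of all tested genes were. At an unadjusted p under 0.05, 3 of the 4 other genes differed there and 0 were lower. Their difference of warm response from Col-0 had a median of 0.65, with 4 of 4 positive and 1 called. For the 7 genes, *PAR1* and *PAR2* included, the median was −1.15, with 0 positive and 6 called, against 0.20 over all tested genes. The lists are small and were not compared by a test. Of 5 HD-ZIP III genes, leaf polarity factors that act with HD-ZIP II proteins, limma called 0 in Col-0, *pif4-2*, or *med14-2*, though 3 in *pif4-2* and 1 in *med14-2* were lower at an unadjusted p under 0.05, and *REV* fell in the libraries labelled *hmr-22* (−1.06, SE 0.18, adjusted p = 8.80e-06), a call lost without rescaling (−0.21).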

How the data were processed

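Stranded mRNA libraries were made from 32 seedling samples. Reads were mapped to TAIR10 by the authors (CLC Genomics Workbench), and the deposited values are FPKM per gene, not counts. No column was left without a sample. FPKM values were rescaled by an unweighted TMM (30% of M and 5% of A values trimmed at each end), and log2(FPKM + 0.25) was fitted with limma 3.58.1 in R 4.3.3 (8 group means, variance trend, robust) for the 19937 genes with at least 0.5 FPKM in at least 4 libraries. The study's thresholds were used for calls: adjusted p under 0.001, 2-fold or more, and the higher group mean above 1 FPKM. A difference of warm responses was called at an adjusted p under 0.05. The limma p-values rest on 1 estimate per gene of the spread between replicates, shared by all 8 groups, those labelled *hmr-22* included. They do not measure the spread of the compared groups alone. The log2 SD of *ATHB2*, for example, was 1.17 in *hmr-22* at 20°C and 0.0705 in *pif4-2* at 27°C. Whole fragments were recovered from FPKM, exon lengths, and a total per library, and 99.2 to 99.3% of values (those of at most 1000 fragments) lay within 0.05 of a whole number. Intervals and floors for counts cover counting error only. The fitting script was tested on simulated data. Motifs were searched in Python 3.11.15.

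The 7 genes, the pathway lists, and the marker lists were chosen with earlier results of these data known. Named were all 7 genes, the 3 genes most correlated with each, the mutated genes, and up to 4 genes of each list that passed in a comparison. Alternatives were other scalings, filters, pseudocounts, thresholds, a replicate block, library weights, voom, smaller fits, and each library left out. Chosen after seeing the data were the ratios within libraries and the window of 2000 bases.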

Additional observations from a re-analysis of the deposited data

Results flagged for a closer look

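Among 56 sets of 4 replicate values, 2 held a library far from the other 3, where chance gives about 1 in 20. *HAT2* was at 1.43 FPKM in *hmr-22* replicate 3 at 27°C, and the other 3 libraries had 0.517 to 0.581. *PAR1* was at 2.65 FPKM in *pif4-2* replicate 4 at 27°C, and the other 3 had 1.91 to 2.01.

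The response to warmth differed from that of Col-0 by a test of the difference itself (limma, adjusted p under 0.05) for 6 genes in *hmr-22*. On the log2 scale these differences were −1.15 for *ATHB2*, −1.11 for *HAT1*, −1.22 for *HAT2*, −1.09 for *HAT3*, −2.57 for *PAR1*, and −2.01 for *PAR2*. In the libraries labelled *med14-2* they were −2.71 for *PAR1* and −1.10 for *PAR2*.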

How the results depend on the processing

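Of 1064 values of the 91 member changes under alternatives, 993 kept their side of the threshold, 16 lost a call, 51 gained one, and 4 called with either setting changed direction. The 993 include 16 values, called with neither setting, whose sign differed from the reported value, 10 of them without rescaling. The 4 were differences of *hmr-22* from Col-0 without rescaling, −0.89 for *HAT1* and −1.37 for *HAT3* at 20°C, and −0.087 for *PAR1* and −1.22 for *PAR2* at 27°C. The removal of the rescaling is what differs in them, and which scale is nearer to the seedlings was not tested.

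Counts of called genes moved as follows. In Col-0 in warmth, the 1 called gene became 2 with median-ratio scaling, with a weight per library, with voom, when only the compared groups were fitted, and without the *hmr-22* libraries, 3 without rescaling, 4 at an adjusted p under 0.05 alone, and 0 with a pseudocount of 0.1 FPKM. In *pif4-2* in warmth, the count of 0 became 1 without rescaling, with a weight per library, when only the compared groups were fitted, and without *hmr-22*, and 2 at an adjusted p under 0.05. In *hmr-22* in warmth, the count of 2 became 0 without rescaling, 1 with a weight per library, and 4 at an adjusted p under 0.05. In *med14-2* in warmth, the count of 1 became 2 without rescaling, with voom, and without *hmr-22*, and 3 at an adjusted p under 0.05.

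Against Col-0, *hmr-22* at 20°C had 3 to 5 called genes over the alternatives where 4 are reported, and *hmr-22* at 27°C went from 3 to 6 without rescaling and to 5 at an adjusted p under 0.05. At that threshold *med14-2* went from 0 to 1 at 20°C and from 1 to 4 at 27°C, and *pif4-2* at 27°C from 0 to 2. With a weight per library, *med14-2* at 27°C went to 2. Genes whose warm response differed ran from 4 to 6 in *hmr-22*, where 6 are reported. In *pif4-2* they went from 0 to 2 with a weight per library, and to 1 when only the compared groups were fitted or without *hmr-22*. In *med14-2* they went from 2 to 6 with a weight per library, to 4 when only the compared groups were fitted or without *hmr-22*, and to 1 at an adjusted p under 0.001. The causes were not tested.

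With each library left out in turn, the count in warmth ran from 0 to 2 in Col-0, was 0 in *pif4-2* and 2 in *hmr-22*, and ran from 1 to 2 in *med14-2*. Against Col-0 it was 0 for *pif4-2* at both temperatures, 3 to 4 for *hmr-22* at both, and 0 and 1 for *med14-2* at 20°C and 27°C. The count of differing responses was 0 for *pif4-2*, 5 to 6 for *hmr-22*, and 1 to 2 for *med14-2*.

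The main fit did not treat same-numbered replicates as paired. All 4 correlations of their deviations from group means were over 0.1 in 3 of 28 pairs of groups. Their mean was 0.0812 against −0.027 for other numbers, values that are tied because deviations cancel within a group. A weaker effect of replicate number was not tested. With a replicate block, 2 genes were called in Col-0 in warmth in place of 1, *HAT2* being the second (adjusted p = 0.000619), and no other count changed. Depth limits the low genes most: *ATHB4* had 0 to 30 fragments per library and *ATHB2* 0 to 152.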
